A study of Mus musculus with 6 samples.

Results

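The autophagy and lysosome genes are 46 genes whose products form autophagosomes, select their cargo, or build and fill the lysosome. They were taken from the table by gene symbol, and all 46 were found among 21851 genes. RNA sequencing had been done on long-term hematopoietic stem cells, the most primitive cells of blood formation, which were sorted from mouse bone marrow as lineage-negative, c-Kit+, Sca1+, CD34- and CD135- cells. The control group (CD, 3 libraries) came from wild-type mice on a control diet, and the other group (HCD, 3 libraries) from wild-type mice given a high cholesterol diet. Both diets were given for 3 months. Age, sex and strain are not given in the labels, which do not say whether a library is 1 mouse or a pool. The p-values therefore measure only the spread between these libraries, which may be technical. Levels are FPKM, fragment counts scaled by transcript length and library depth. Their sum still differed between libraries, from 427769 in CD replicate 3 to 462951 in HCD replicate 2. The main fit added no further scaling, so levels and sums compared between libraries carry that difference.

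Autophagy wraps cytoplasm in a double membrane and delivers it to the lysosome. The ULK1 kinase complex and the beclin 1 lipid kinase complex start the membrane, a ubiquitin-like conjugation system attaches ATG8 proteins (the LC3 and GABARAP families) to it, and receptors such as SQSTM1/p62 tie cargo to ATG8. The lysosome then digests the cargo with acid proteases, glycosidases and lipases behind a membrane of LAMP proteins, and the transcription factors TFEB, TFE3 and MITF are known regulators of many of these genes. In hematopoietic stem cells, autophagy is known for clearing mitochondria and for preserving quiescence.

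Depth was estimated from the size of 1 read in low values, at about 18840000 to 19960000 reads or fragments a library. The estimate rested on 14 genes in HCD replicate 2 and at most 30 in the other libraries. Between 10549 and 10675 genes per library reached 1 FPKM. Of 10676 genes tested, 1488 passed an adjusted p of 0.05 in limma, 670 of them higher and 818 lower in HCD. HCD replicate 2 stood apart from the other HCD libraries: on the second principal component (26.5% of the variance) it lay at -14.66 and the others at 7.81 and 10.11. Without it 2672 genes passed. Transcripts of the sort gate were checked. Kit lay between 114 and 122 FPKM and Ly6a, which encodes Sca1, between 59.4 and 70.0 FPKM. Cd34 (448 to 488 FPKM) and Flt3, which encodes CD135 (99.7 to 115 FPKM), were high in all 6 libraries although the sort was for cells without these surface proteins, and neither passed the test. In bulk RNA, fewer cells of a type and less RNA per cell cannot be told apart.

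Of the 46 autophagy and lysosome genes, 8 were higher in HCD (17.4%) and none was lower. They were the ATG8 genes Map1lc3a, Map1lc3b and Gabarapl1, the cargo receptor Sqstm1, the lysosomal membrane gene Lamp2, the cathepsins Ctsb and Ctsl, and Grn, which encodes the lysosomal glycoprotein progranulin. Over all genes tested, 6.28% were higher and 7.66% lower, or 13.9% in either direction. All 46 passed the filter on low values, which asked for 1 FPKM or more in 3 or more libraries. The members were well expressed, with a median level of 25.4 FPKM against 12.7 FPKM for all genes tested, and 33 of the 46 lay above that median. The median difference on the log2(FPKM + 1) scale, HCD minus CD, was 0.10 for the members and -0.03 for all genes tested, and 34 of 46 members had a positive difference. The rises were small, from 1.15-fold for Map1lc3b to 1.32-fold for Map1lc3a.

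The number of calls changed with the library left out. When CD replicate 1 or HCD replicate 1 was left out, 2 members passed, Sqstm1 and Gabarapl1. Without CD replicate 2 there were also 2, Sqstm1 and Wipi1. Wipi1 was not among the 8, so 7 of the 8 were lost in that fit. When CD replicate 3 was left out 1 passed, Sqstm1. When HCD replicate 3 was left out 6 of the 8 passed, without Ctsl and Map1lc3a. Without HCD replicate 2 there were 12, 11 of them higher, which held all 8 genes above, and 1 lower, Atg3. In that fit 25.2% of all genes tested passed in either direction. Of 10607 genes, 1171 were higher and 1501 lower. Each of the 8 kept a positive difference under all 13 alternative settings, and Sqstm1 passed in all 13.

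**Figure D1:**
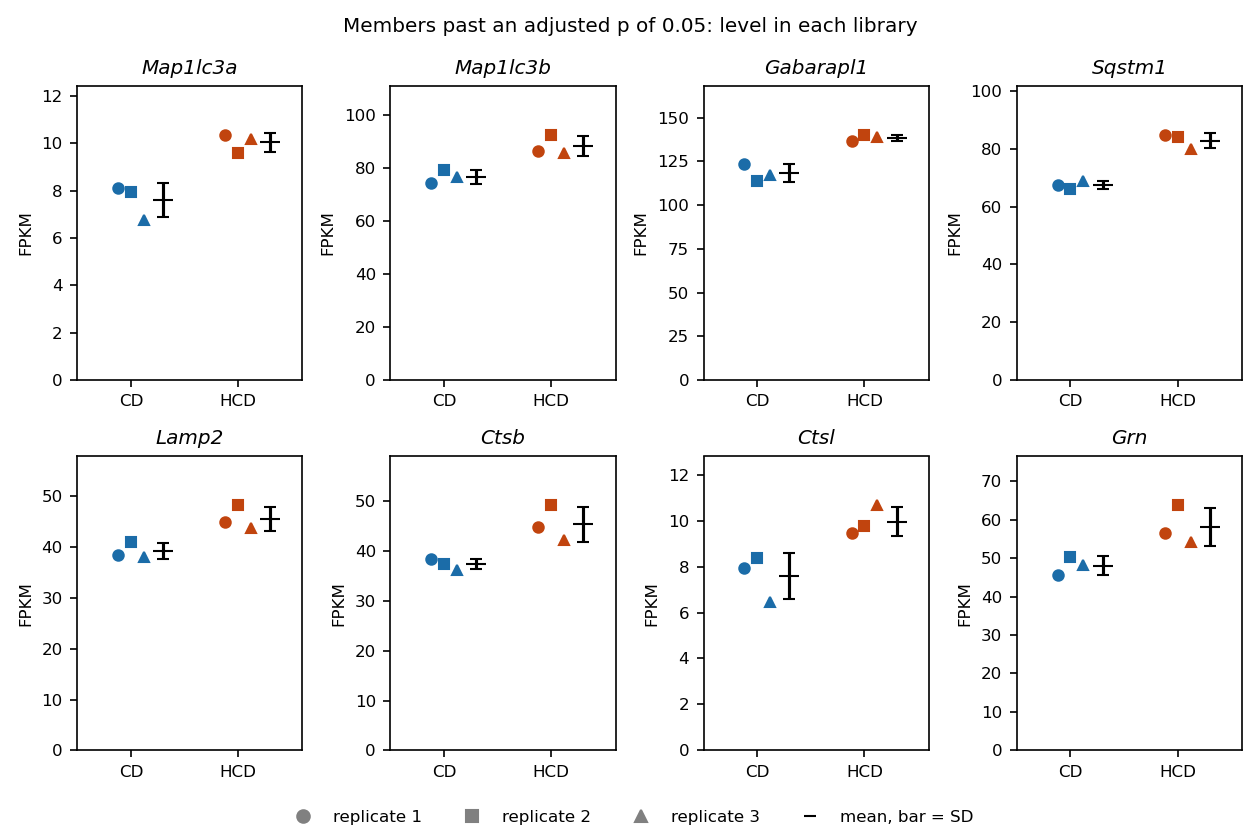
FPKM of the 8 autophagy and lysosome genes that passed limma's test, 1 panel a gene, with 1 point for each of the 3 CD and 3 HCD libraries and bars for the group mean with its SD. In all 8 panels (the vertical axes start at 0 and differ between genes) the 3 HCD points lie above the 3 CD points.

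Among the genes that start the autophagosome, none of 6 passed the test, and the median difference was 0.11. Wipi1, which encodes a lipid-binding protein of the growing membrane, came closest. It measured 3.19, 4.64 and 3.95 FPKM in CD replicates 1 to 3 and 5.73, 5.09 and 5.40 FPKM in the HCD replicates. The groups did not overlap, and the difference was 0.39 (SE 0.11, limma adjusted p = 0.0556). Wipi1 passed in 6 of the 13 alternatives, among them the fit with the replicate block (limma adjusted p = 0.0487) and the fit without HCD replicate 2 (0.0287), with a range of 0.0287 to 0.168. Atg9a, the membrane protein that seeds the structure, was 6.40 ± 0.32 FPKM in CD and 7.42 ± 0.40 FPKM in HCD (SD, n = 3) with no overlap, and did not pass (limma adjusted p = 0.128). The kinase gene Ulk1, its partner Atg13, Wipi2 and the beclin gene Becn1 had overlapping groups. Becn1, the most abundant of the 6, lay between 54.3 and 59.2 FPKM.

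The conjugation system did not move as a group. Of its 6 genes, 3 had a positive and 3 a negative difference, the median was -0.03, and none passed. Atg3, the E2-like enzyme that transfers ATG8 to its lipid, measured 25.4, 25.2 and 26.2 FPKM in CD and 23.4, 23.6 and 22.0 FPKM in HCD. All HCD libraries lay below all CD libraries, with a difference of -0.15 (SE 0.05, limma adjusted p = 0.0895). It passed in 1 of 13 alternatives, without HCD replicate 2 (limma adjusted p = 0.0375, with a range of 0.0375 to 0.253). Atg7, the E1-like enzyme, had a difference of 0.17 (limma adjusted p = 0.207), and Atg5, Atg12, Atg16l1 and the protease gene Atg4b ranged from -0.11 to 0.04 in difference.

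The ATG8 family held the largest share of calls, 3 of 5 genes higher, against 6.28% of all genes tested. The median difference was 0.20, and the difference was positive in all 5. Map1lc3a measured 8.09, 7.92 and 6.76 FPKM in CD and 10.3, 9.58 and 10.2 FPKM in HCD. The difference was 0.36 (SE 0.08, limma adjusted p = 0.0219). Map1lc3b, which encodes the LC3B protein commonly used to follow autophagosomes, measured 74.0, 79.3 and 76.5 FPKM in CD and 86.3, 92.3 and 85.4 FPKM in HCD. It rose by 0.20 (SE 0.05, limma adjusted p = 0.032). Gabarapl1 was the most abundant of the family in all 6 libraries, at 124, 114 and 117 FPKM in CD and 137, 140.1 and 139 FPKM in HCD. Its HCD libraries lay close to each other and above every CD library, with a difference of 0.23 (SE 0.05, limma adjusted p = 0.0142). In the 6 fits that left out 1 library, Map1lc3a passed in 1, Map1lc3b in 2 and Gabarapl1 in 4. Without CD replicate 2 or CD replicate 3, none of the ATG8 genes passed. Over the 13 alternatives their limma adjusted p reached 0.0791 for Map1lc3a, 0.135 for Map1lc3b and 0.0738 for Gabarapl1.

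The other two ATG8 genes did not pass. Gabarap measured 115, 112 and 105 FPKM in CD and 111, 127 and 106 FPKM in HCD, so its groups overlapped widely (difference 0.05, limma adjusted p = 0.674). Gabarapl2 measured 35.4, 38.9 and 32.2 FPKM in CD and 41.5, 37.7 and 40.7 FPKM in HCD. Only HCD replicate 2 fell inside the CD range (difference 0.17, limma adjusted p = 0.155). Summed FPKM of the 5 genes was 348 ± 9.59 in CD and 391 ± 13.4 in HCD (SD, n = 3). As shares of that sum, Gabarap was 31.7 ± 0.61% in CD and 29.2 ± 1.74% in HCD, Gabarapl1 34.0 ± 1.40% and 35.5 ± 0.98%, and Map1lc3b 22.0 ± 1.03% and 22.5 ± 0.19%. Map1lc3a stayed the smallest, at 2.18 ± 0.15% and 2.57 ± 0.18%.

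**Figure D2:**
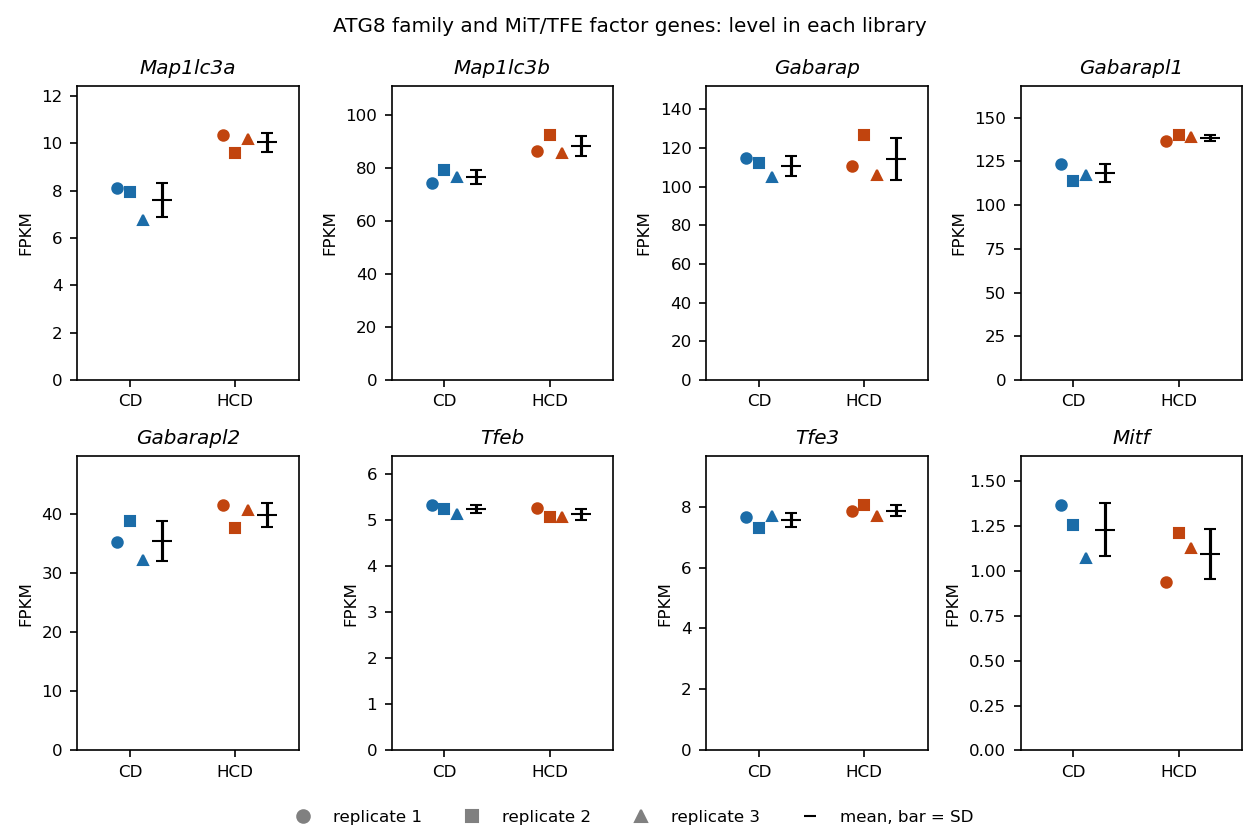
FPKM in each CD and HCD library for the 5 ATG8 genes and the 3 transcription factor genes Tfeb, Tfe3 and Mitf. Gabarapl1 and Gabarap are the most abundant ATG8 genes in every library, and the 3 factors have overlapping groups.

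Sqstm1 had the smallest p of the 46 genes. It measured 67.6, 66.0 and 68.8 FPKM in CD and 84.8, 84.0 and 79.9 FPKM in HCD, so the groups lay well apart. The difference was 0.29 (SE 0.04, limma adjusted p = 0.00529), and over the 13 alternatives the adjusted p lay between 0.00129 and 0.0364. Nbr1, a related ubiquitin receptor, measured 26.2, 23.7 and 25.5 FPKM in CD and 28.8, 25.1 and 30.0 FPKM in HCD. Its HCD replicate 2 lay inside the CD range, and Nbr1 passed only without that library (limma adjusted p = 0.0178, against 0.22 with it and a range of 0.0178 to 0.478). Optn, the optineurin gene, was low, at 3.89 ± 0.44 FPKM in CD and 3.62 ± 0.39 FPKM in HCD (SD, n = 3), and did not pass.

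The factors that regulate lysosomal genes had overlapping groups. Tfeb measured 5.32, 5.25 and 5.14 FPKM in CD and 5.26, 5.06 and 5.06 FPKM in HCD (difference -0.03, SE 0.07, limma adjusted p = 0.834). Tfe3 measured 7.67, 7.29 and 7.68 FPKM in CD and 7.87, 8.04 and 7.68 FPKM in HCD (difference 0.05, SE 0.07, limma adjusted p = 0.626). Mitf lay near the filter, at 1.37, 1.26 and 1.07 FPKM in CD and 0.94, 1.21 and 1.13 FPKM in HCD (difference -0.09, SE 0.10, limma adjusted p = 0.585). These are transcript levels, and the activity of TFEB and TFE3 is known to be set largely by phosphorylation and entry into the nucleus, which the data do not measure.

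Of the 6 lysosomal membrane genes, Lamp2 alone passed. Lamp2 encodes a membrane glycoprotein with a known role in fusion of autophagosomes with lysosomes. It measured 38.5, 41.0 and 38.1 FPKM in CD and 44.8, 48.2 and 43.7 FPKM in HCD, with no overlap and a difference of 0.21 (SE 0.05, limma adjusted p = 0.0357). Lamp1, its more abundant relative, measured 87.9 ± 2.39 FPKM in CD and 92.7 ± 4.20 FPKM in HCD (SD, n = 3) with overlapping groups. Laptm5, a lysosomal protein of blood cells, was the most abundant of the 46 genes at 282 to 349 FPKM, and HCD replicate 2 held its highest value. The tetraspanin gene Cd63, Laptm4a and the calcium channel gene Mcoln1 also had overlapping groups.

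Among the 15 lysosomal hydrolases, 2 were higher (13.3%, against 6.28% of all genes tested), both of them cysteine proteases. Ctsb, encoding cathepsin B, measured 38.3, 37.5 and 36.2 FPKM in CD and 44.7, 49.1 and 42.2 FPKM in HCD (difference 0.27, SE 0.06, limma adjusted p = 0.0228). Ctsl, encoding cathepsin L, measured 7.92, 8.37 and 6.46 FPKM in CD and 9.44, 9.77 and 10.7 FPKM in HCD (difference 0.36, SE 0.10, limma adjusted p = 0.043). The groups did not overlap for either gene. Ctsb passed in 9 of the 13 alternatives (limma adjusted p up to 0.0981) and Ctsl in 7 (up to 0.129). In the 6 fits that left out 1 library, Ctsb passed in 2 and Ctsl in 1. The 9 proteases had a median difference of 0.16, and 8 of 9 had a positive one.

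A further 3 proteases had HCD libraries that all lay above the CD libraries without passing. Ctsa, a carboxypeptidase that also protects other hydrolases, measured 30.0, 30.0 and 30.2 FPKM in CD and 37.2, 31.8 and 34.3 FPKM in HCD (difference 0.19, SE 0.06, limma adjusted p = 0.0758). The CD libraries were nearly equal and the HCD libraries spread, and Ctsa passed in 3 of 13 alternatives (limma adjusted p from 0.00634, without HCD replicate 2, to 0.205). Ctsz measured 71.0, 79.4 and 75.3 FPKM in CD and 83.6, 97.3 and 80.2 FPKM in HCD. It passed only with the replicate block (limma adjusted p = 0.0302, against 0.107 without it and a range of 0.0302 to 0.303). Ctss was 25.3 ± 0.57 FPKM in CD and 28.2 ± 1.32 FPKM in HCD (SD, n = 3). Ctsd, which encodes the aspartic protease cathepsin D, was the most abundant hydrolase at 174 to 204 FPKM, and its groups overlapped, as did those of Ctsc, Ctsh and Lgmn.

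None of the 6 glycosidases and lipid hydrolases passed, and their median difference was 0.09. Smpd1, the acid sphingomyelinase gene, had the largest difference of them (0.20, limma adjusted p = 0.158). The HCD libraries lay above the CD libraries for Smpd1, the acid ceramidase gene Asah1 and the beta-galactosidase gene Glb1. They lay below for Gusb, which encodes beta-glucuronidase and was 58.4 ± 2.60 FPKM in CD and 55.3 ± 0.996 FPKM in HCD (SD, n = 3). Gaa and Hexa overlapped. Of the 2 cofactor genes, Grn passed, at 45.5, 50.4 and 48.1 FPKM in CD and 56.4, 63.7 and 54.2 FPKM in HCD, with no overlap (difference 0.27, SE 0.07, limma adjusted p = 0.0338). Grn passed in 8 of the 13 alternatives, and in 2 of the 6 that left out 1 library (limma adjusted p up to 0.134). Psap, whose product is cut into the saposins that help lipid hydrolases, overlapped between 211 and 229 FPKM.

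**Figure D3:**
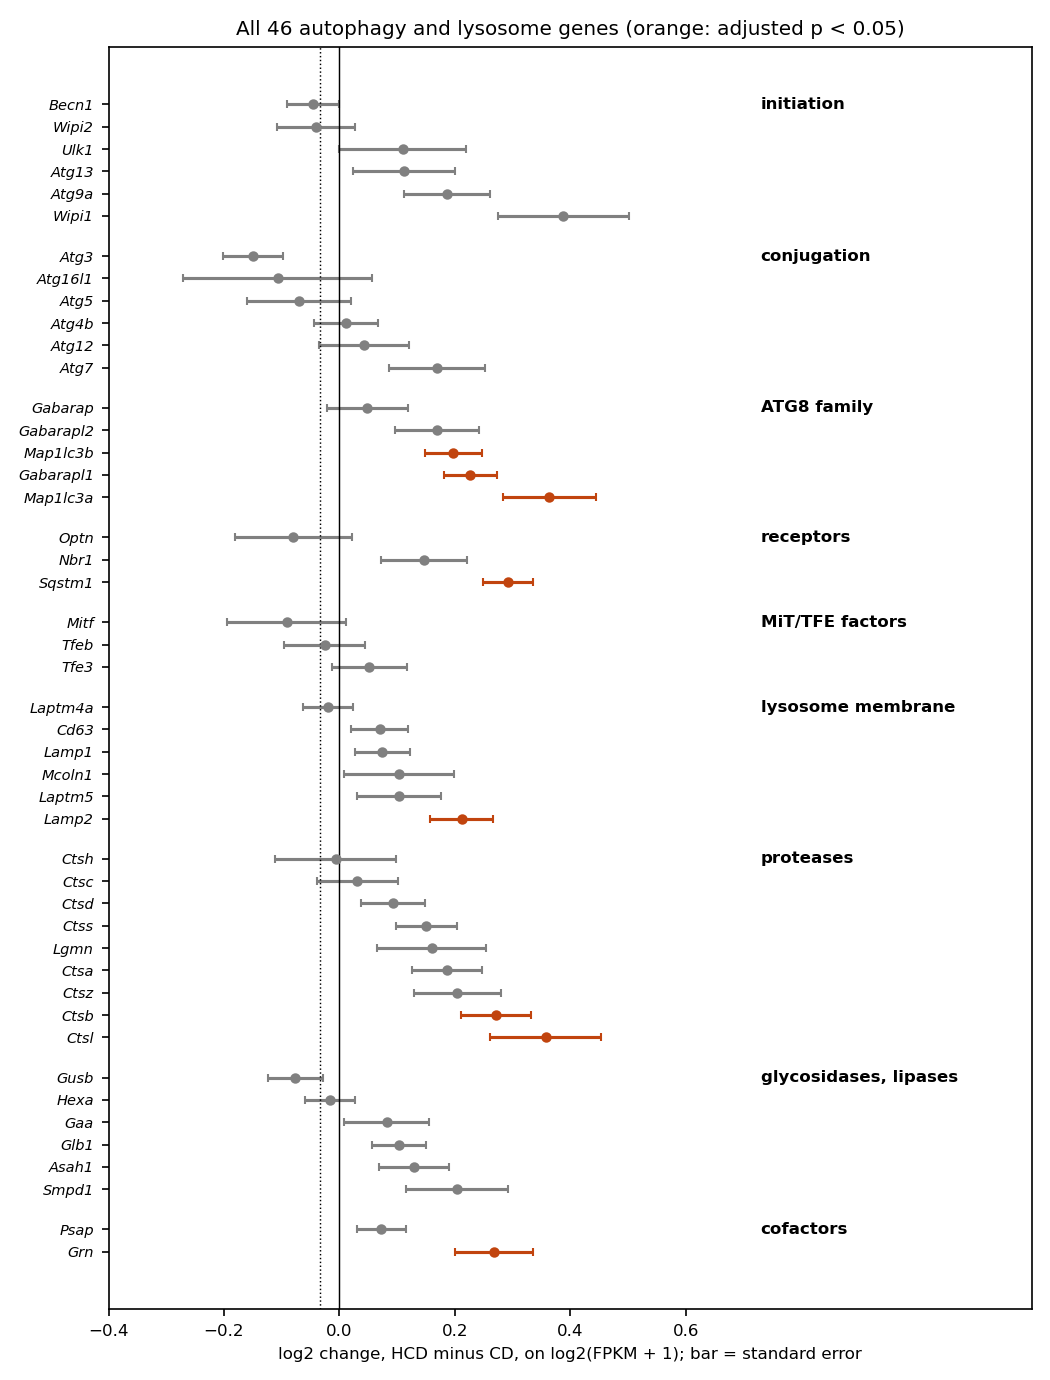
Difference on the log2(FPKM + 1) scale, HCD minus CD, with its SE for all 46 genes, grouped by role. The 8 genes that passed limma's test are orange, the dotted line is the median of all genes tested (-0.03), and 34 of the 46 differences are positive.

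The autophagy core, made of the initiation, conjugation, ATG8 and receptor genes, was then set beside the hydrolases. The core had 4 of 20 genes higher (20.0%), 14 positive and a median difference of 0.11. The hydrolases had 2 of 15 higher (13.3%), 12 positive and a median of 0.13. Over all genes tested, 6.28% were higher and 42.1% had a positive difference. The medians lay close together, and the difference between the lists was not tested. Their order turned over with the length trend removed (core 0.146, hydrolases 0.124), without HCD replicate 2 (0.124 and 0.107) and without CD replicate 1 (0.122 and 0.118). By library, the median difference from the CD mean was 0.12, 0.05 and 0.14 in HCD replicates 1 to 3 for the core and 0.11, 0.13 and 0.09 for the hydrolases. All genes tested gave -0.02, -0.05 and -0.02. HCD replicate 2 was therefore the lowest HCD library for the core and the highest for the hydrolases. Counted over genes, that library was the highest HCD library for 7 and the lowest for 9 of the 20 core genes, and the highest for 9 and the lowest for 3 of the 15 hydrolases. Over all genes tested it was the highest HCD library for 36.3% and the lowest for 46.9%, near the core's 35.0% and 45.0%, against 60.0% and 20.0% for the hydrolases. Across tested genes with a length, HCD replicate 2 minus the other HCD libraries fell with transcript length (Spearman's rho -0.28). The hydrolases had a median length of 2743 bases and the core 3678. The part of length in this contrast was not tested. Without HCD replicate 2, 7 core genes (6 higher and 1 lower) and 3 hydrolases (all higher) passed, against 4 and 2 with it. Calls over all genes went from 13.9% to 25.2%, so these gains are not particular to the lists. Leaving out another library gave 1 to 3 core genes (2 without CD replicate 1, CD replicate 2 or HCD replicate 1, and 1 without CD replicate 3). The 2 without CD replicate 2 were Sqstm1 and Wipi1, and Wipi1 had not passed in the main fit. For the hydrolases, leaving out another library gave 0, apart from 1 without HCD replicate 3.

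Genes whose groups did not overlap were counted next. In 16 of the 46 the HCD libraries were all higher, against 15.0% of all genes tested. In 2, Atg3 and Gusb, they were all lower, against 22.7% of all genes tested. The core held 6 of the 16 and the hydrolases 8. Spread within a group was small: the coefficient of variation had a median of 4.10% over the members in CD and 5.41% in HCD.

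Other genes of these pathways, on lists chosen with earlier results of these data known, were examined next. Of 149 listed genes 140 were tested, with a median difference of 0.07. Of these 21 were higher (15.0%) and 4 lower, against 6.28% and 7.66% of all genes tested. The hydrolases outside the 46 genes held the most calls: 9 of 31 were higher (29.0%), none lower, 29 had a positive difference, and the median was 0.19. Whether each product of this list acts in the lysosome was not examined. Ctse, an aspartic protease gene, measured 8.30, 8.94 and 9.25 FPKM in CD and 15.1, 14.1 and 15.3 FPKM in HCD (difference 0.69, limma adjusted p = 0.000838). Ctsf, encoding cathepsin F, was 10.9 ± 0.52 FPKM in CD and 14.9 ± 1.26 FPKM in HCD (SD, n = 3, limma adjusted p = 0.0099). Counts without 1 library at a time, for this list and for the V-ATPase and other autophagy lists, were added after the data were seen. The count of 9 became 1, 3 and 2 without CD replicates 1, 2 and 3, and 3, 16 and 8 without HCD replicates 1, 2 and 3.

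Of 17 tested subunits of the V-ATPase, the pump that acidifies the lysosome, 4 were higher (23.5%, against 6.28% of all genes tested) and none lower. Atp6ap2 was 35.1 ± 1.29 FPKM in CD and 42.9 ± 0.91 FPKM in HCD (SD, n = 3, limma adjusted p = 0.00834), and Atp6v0d1 was 37.3 ± 1.55 and 45.9 ± 2.09 FPKM (limma adjusted p = 0.0109). Leaving out 1 library gave 1 to 4 V-ATPase calls, with 2 without CD replicate 1, CD replicate 2 or HCD replicate 1 and 1 without CD replicate 3. Among other lysosomal membrane and transport genes, 1 of 23 was higher (4.35%) and 1 lower, against 6.28% and 7.66% of all genes tested. Ostm1, a partner of the lysosomal chloride transporter, had a difference of 0.36 (limma adjusted p = 0.0196). Igf2r, the mannose 6-phosphate receptor that carries hydrolases to lysosomes, fell from 4.46 ± 0.43 to 2.84 ± 0.34 FPKM (SD, n = 3, limma adjusted p = 0.0136).

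Among other autophagy genes 4 of 30 were higher (13.3%, against 6.28% of all genes tested), with a median difference of 0.03. The 2 with the smallest p were both cargo receptor genes: Calcoco1 was 18.4 ± 0.85 FPKM in CD and 25.6 ± 1.68 FPKM in HCD (SD, n = 3, limma adjusted p = 0.00372), and Tax1bp1 was 83.0 ± 2.53 and 97.7 ± 1.75 FPKM (limma adjusted p = 0.011). That count of 4 became 1 without CD replicate 1 or 2, 2 without CD replicate 3 or HCD replicate 1, and 6 without HCD replicate 2. Of 7 mitophagy genes 1 was higher (14.3%, against 6.28% of all genes tested) and none lower. This was Pink1, which encodes the kinase that marks damaged mitochondria. It measured 46.8, 52.4 and 46.5 FPKM in CD and 73.6, 92.7 and 72.4 FPKM in HCD, a 1.64-fold higher mean (limma adjusted p = 0.00344).

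The nutrient-sensing genes around mTORC1, the kinase complex that restrains autophagy, had 1 of 25 higher and 2 lower, with a median difference of -0.07. These counts lay near the shares over all genes tested, 6.28% higher and 7.66% lower, so they do not set the list apart. Sesn2, a leucine sensor gene, rose from 3.82 ± 0.51 to 5.10 ± 0.19 FPKM (SD, n = 3, limma adjusted p = 0.0441). Rragb, a Rag GTPase gene, fell by 0.32 on the log2(FPKM + 1) scale (limma adjusted p = 0.0337), and Fnip2, a folliculin partner gene, fell by 0.38 (limma adjusted p = 0.0431). Of 7 FOXO and AMPK genes 1 was higher and 1 lower, against 6.28% and 7.66% of all genes tested. The AMPK subunit gene Prkab1 rose from 21.9 ± 0.30 to 30.1 ± 2.38 FPKM (SD, n = 3, limma adjusted p = 0.00447). Foxo3, whose product is known to drive autophagy genes in hematopoietic stem cells, fell from 34.5 ± 1.43 to 30.0 ± 0.49 FPKM (SD, n = 3, limma adjusted p = 0.0339).

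**Figure D4:**
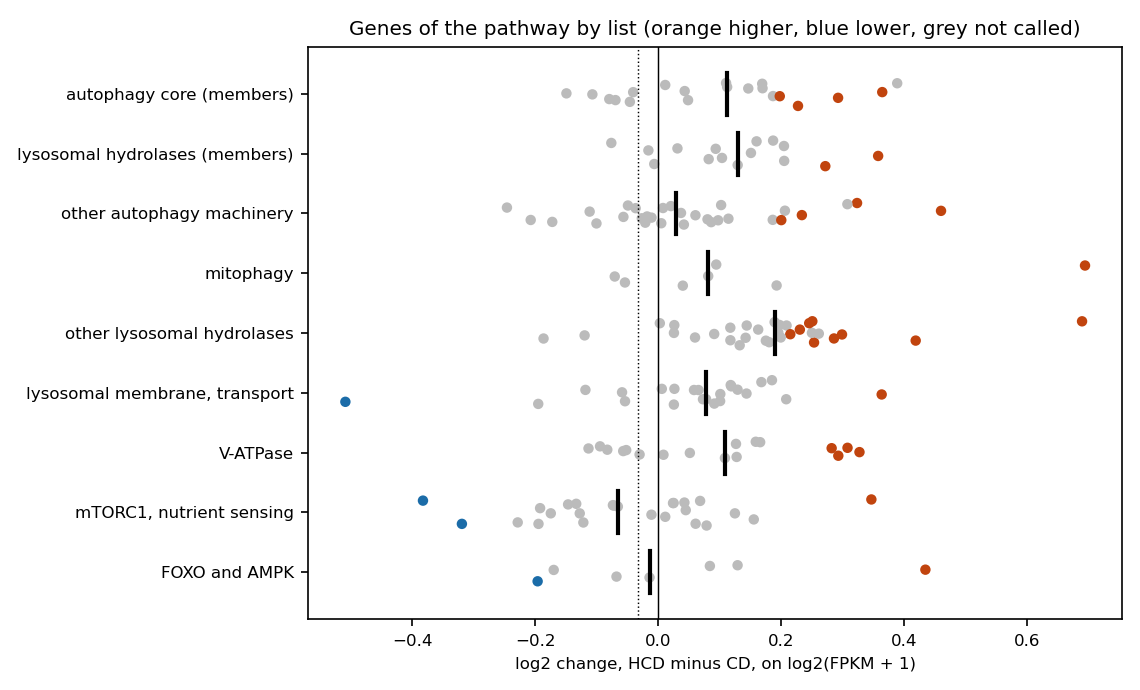
Difference on the log2(FPKM + 1) scale, HCD minus CD, for each tested gene of the autophagy core, the hydrolases and the other pathway lists, 1 row a list (orange higher, blue lower, grey not past limma's threshold). Thick bars mark each list's median, such as 0.19 for the other lysosomal hydrolases and -0.07 for nutrient sensing, and the dotted line marks -0.03, the median of all genes tested.

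Promoters of the members were searched for the E-box letters CACGTG, which TFEB, TFE3 and MITF are known to bind, and for the longer string TCACGTGA, part of the motif common in lysosomal gene promoters. The windows run from 250 bases before to 50 bases after the start site (RefSeq, GRCm38.p6), and 39 of the 46 members had one. Both strings read the same on both strands. CACGTG was present in 11 of 39 members (28.2%) and in 1016 of 8330 tested genes (12.2%). It was found in 3 of 16 core genes and 8 of 20 lysosomal genes. TCACGTGA was present in 4 members (10.3%) and in 2.33% of tested genes, and the same string with a G before and a C after it in none of the 39 members and 0.888% of tested genes. A match is a description of these letters, not of binding. The sequences that follow show 1 match each for Ctsl, the one gene of 6 searched that rose in HCD and held CACGTG, and the 4 members with TCACGTGA, with CACGTG in capitals. They are written 5′ to 3′ along the gene.
Ctsl, chr13:64370739-64370768, minus strand: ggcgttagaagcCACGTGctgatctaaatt
Ctsd, chr7:142387908-142387937, minus strand: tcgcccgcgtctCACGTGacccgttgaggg
Ctsa, chr2:164833743-164833772, plus strand: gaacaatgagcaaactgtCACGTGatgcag
Mcoln1, chr8:3500462-3500491, plus strand: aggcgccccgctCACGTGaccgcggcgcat
Atg3, chr16:45158746-45158775, plus strand: ggagagtcgagtCACGTGaggccttaggtg
Counted from the RefSeq start site, the match shown began at -236 in Ctsl, -98 in Ctsd, -12 in Ctsa, -45 in Mcoln1 and -71 in Atg3. GENCODE vM21 places the start of some genes elsewhere. By its gene spans the sequences shown for Ctsl, Ctsd, Ctsa and Mcoln1 lie inside the gene, and that for Atg3 lies upstream. Ctsa held a second TCACGTGA, at position 5 after the start site, and Ctsd, Mcoln1 and Atg3 each held 1 more CACGTG, none of which is shown. Of these 5 genes, Ctsl passed the test, and Atg3 had the most negative difference of all 46.

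Markers of several other cells differed between the diets. Over all genes tested, 6.28% were higher in HCD and 7.66% lower. All 9 tested markers of granulocyte-monocyte progenitors were higher in HCD, with a summed level of 887 to 916 FPKM in CD and 1667 to 1836 FPKM in HCD. Of 10 neutrophil markers 6 were tested and all 6 were higher, with sums over all 10 of 13.3 to 13.5 FPKM and 41.9 to 50.6 FPKM. The filter on low values can be met by the 3 HCD libraries alone. A marker low in CD may thus have been tested only because it was high in HCD, which fixes its direction in advance. Counts of tested markers in this paragraph carry that limit. Myeloid cells are known to be rich in lysosomal enzymes. Of 14 monocyte and macrophage markers 8 were tested, 3 were higher and 3 lower, and sums were 173 to 183 FPKM and 186 to 226 FPKM. Of these 14 markers, 5 lay below 1 FPKM in all 6 libraries, among them Adgre1 (0.17 to 0.63 FPKM), Fcgr1 (0.06 to 0.32 FPKM) and Marco (at most 0.08 FPKM). Immediate early genes, which respond rapidly to many stimuli, had 16 of 22 higher and 2 lower, with sums of 3446 to 3680 FPKM and 6457 to 8275 FPKM. Of 6 tested megakaryocyte markers 4 were higher and none lower, with sums of 58.4 to 63.1 FPKM and 95.9 to 107 FPKM. Of 5 tested basophil and mast cell markers 4 were higher and none lower, with sums of 34.0 to 38.4 FPKM and 58.4 to 67.9 FPKM. Markers of stem cells themselves were mixed, with 3 of 10 higher and 3 lower. Among multipotent progenitor markers 1 of 4 was higher. Of the dendritic cell (3 tested), B cell (4) and erythroid (5) markers 1 each was lower and none higher, and of 2 T and NK cell markers 1 was higher and 1 lower. The part of these changes in the 8 calls was not tested.

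Transcript length and overlapping genes also touched the members. Over all tested genes with a length, the difference fell with transcript length (Spearman's rho -0.25, across genes, which are not independent). Members had a median length of 2790 bases, against 3378 for all genes tested, 3678 for the core and 2743 for the hydrolases. With that trend removed, 10 members passed, the 8 above with Wipi1 and Ctsa. In GENCODE vM21 on GRCm38, Sqstm1 (chr11:50199366-50210827, minus strand) overlaps Mrnip on the opposite strand, Ctsb (chr14:63122462-63145923) overlaps Fdft1 (3.73 FPKM), Grn (chr11:102430315-102437048) overlaps Fam171a2 (4.46 FPKM), and Map1lc3b (chr8:121590361-121598760) overlaps Zcchc14 (0.151 FPKM). Gabarapl1 and Ctsl (chr13:64359337-64370890) overlap noncoding genes, and a processed pseudogene lies within Ctsl on its own strand. Ctsz overlaps Nelfcd (33.0 FPKM). The libraries were stranded, but whether the counting used strand is not given in the sources used here, so the values of these members carry that uncertainty.

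**Figure D5:**
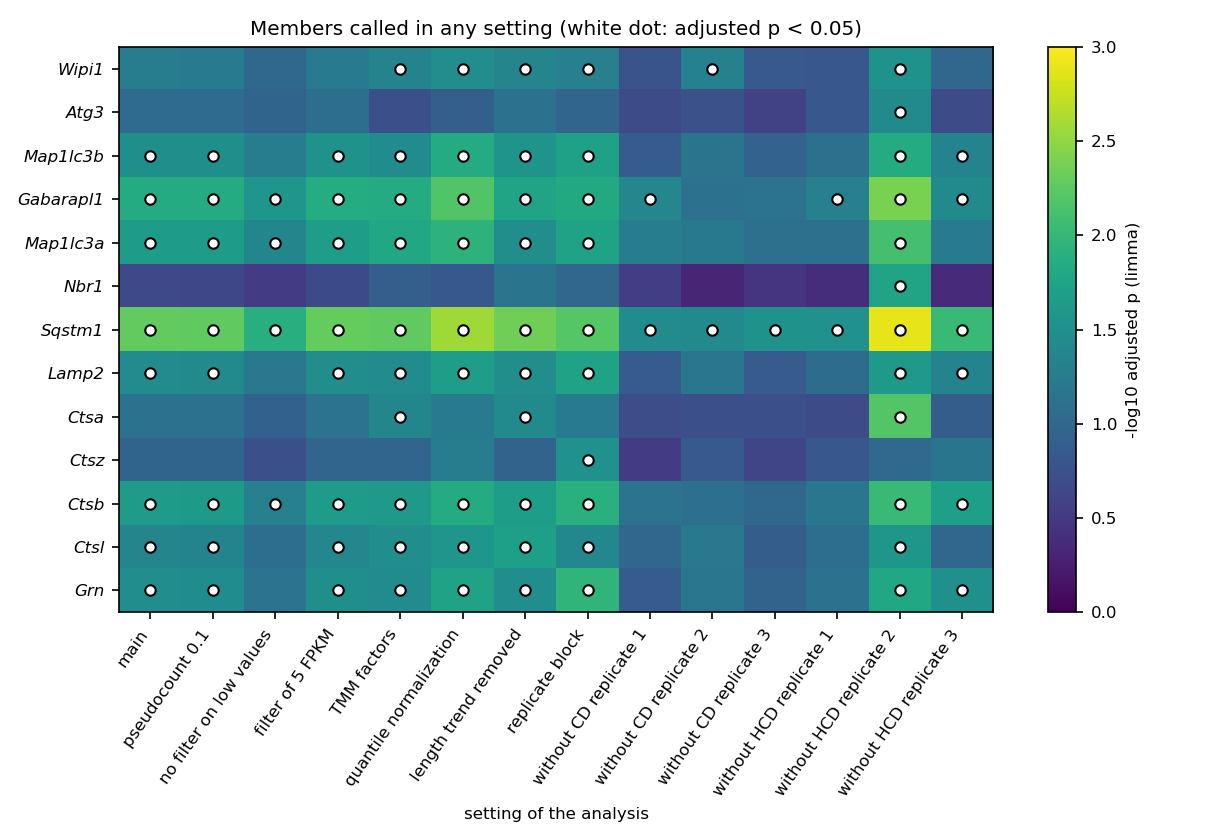
Heat map of the negative log10 of limma's adjusted p for the 13 genes that passed in at least 1 setting (rows), under the main setting and each of the 13 alternatives (columns), with a white dot where the adjusted p was under 0.05. The Sqstm1 row has a dot in every column, and the column without HCD replicate 2 has 12 dots.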

How the data were processed

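RNA sequencing libraries from sorted bone marrow cells of 3 CD and 3 HCD samples were analysed. Per the submitters' processing notes, fastp, HISAT2 and StringTie were used with GRCm38 (mm10). Their versions and the annotation were not given in the sources used here. FPKM is the unit taken for what the authors deposited, although the headers do not tell FPKM from RPKM. Of 21878 rows, 27 with a date for a symbol (0.127% of the FPKM) were left out. Depth came from the size of 1 read in low values.

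limma 3.58.1 (R 4.3.3) with trend and robust empirical Bayes was run on log2(FPKM + 1) over all genes that reached 1 FPKM in 3 or more libraries, two-sided, with Benjamini-Hochberg adjustment and a threshold of 0.05. The pseudocount of 1 understates changes of low genes. The code was tested on simulated data. Members and lists were chosen with earlier results of these data known. All 46 members are reported, with values per library for those that passed in any setting, the ATG8 genes and the TFEB family. Of each other pathway list, up to 2 genes with the smallest p in each direction were named.

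Same-numbered libraries of the groups correlated in their deviations from the group means across genes (0.103, 0.292 and 0.166, against -0.25 to 0.0983 for other pairs). Replicates 1 and 3 were hardly told apart: CD replicate 1 gave 0.103 with HCD replicate 1 and 0.0983 with HCD replicate 3. The numbers were treated as pairs in the fit with a replicate block. That choice came from these same data, so calls made only with the block are not independent support. No label states such pairing. The alternatives changed the pseudocount (0.1), the filter (none or 5 FPKM), the scaling (TMM or quantile), a length trend, the block and each library in turn.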

Additional observations from a re-analysis of the deposited data

How the results depend on the processing

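With 3 libraries a group, small differences lie near the threshold. All 8 calls were kept with a pseudocount of 0.1, a filter of 5 FPKM, TMM, quantile scaling, the length trend removed and the replicate block. The block treats same-numbered libraries as paired, a choice drawn from these same data. It gave 10 member calls (adding Wipi1 and Ctsz) and 1873 genes past the threshold, against 1488. Without a filter on low values, 15603 genes were tested and 4 members passed, 1 of them a hydrolase. Ctsl, Grn, Lamp2 and Map1lc3b were lost. Leaving out 1 library gave 435 to 2672 genes past the threshold, 1 to 12 members, 1 to 7 core genes and 0 to 3 hydrolases. The lowest count over all genes came without CD replicate 1 and the highest without HCD replicate 2. The members' median difference of 0.104 was 0.134 with TMM, 0.114 with the length trend removed and 0.0734 to 0.106 with 1 library left out. The hydrolases' median of 0.129 was 0.159 with TMM, 0.160 with quantile scaling and 0.107 to 0.125 with 1 library left out. The core's median of 0.111 was 0.141 with TMM, 0.140 with quantile scaling, 0.146 with the length trend removed and 0.0823 to 0.124 with 1 library left out. The cause of these shifts was not tested. None of the 8 called genes changed direction. Optn, Mitf and Lgmn were not tested with the 5 FPKM filter.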
